A study of Mus musculus with 9 samples.

Results

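The response of a cell to interferon passes through a short chain of proteins, and the genes of that chain were followed here through primary mammary tumours of 3 genotypes. The 9 genes were chosen by symbol, out of 32286 in the feature table. They were the receptor chains Ifnar1, Ifnar2, Ifngr1 and Ifngr2, the Janus kinases (JAKs) Jak1, Jak2 and Tyk2, and the transcription factors Stat2 and Irf9. The question was whether the receptors and kinases changed in Kmt2c or Kmt2d knockout (KO) tumours, or only the genes for the transcription factors.

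Kmt2c and Kmt2d encode methyltransferases of histone H3 lysine 4. WT, Kmt2c KO and Kmt2d KO derivatives of the mouse triple-negative mammary cancer line 168FARN, all carrying H2B–mCherry, were injected into the mammary fat pads of immunocompetent female BALB/c mice, and dissociated cells of 3 tumours per genotype, cleared of debris and dead cells on Percoll, went into 5′ single-cell RNA sequencing, with a library each. The mice were bought at an age of 5 to 6 weeks. The knockouts were sorted pools edited with 3 guides per gene against exon 1, so that the 3 tumours of a genotype repeat the mouse and not the edit, and p-values measure the spread between tumours of the same cell pools.

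Background to the pathway is as follows. Type I interferons bind the pair Ifnar1 and Ifnar2, which carry Tyk2 and Jak1 on their inner ends. Interferon gamma binds Ifngr1, joined by Ifngr2, which carry Jak1 and Jak2. The activated kinases phosphorylate STAT proteins. Stat2, in a complex with the DNA-binding Irf9, drives genes that hold an interferon-stimulated response element, and genes of this complex are themselves induced by interferon in many cell types.

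The 9 libraries held 89147 cell barcodes, of which 58645 passed the limits of the study on detected genes and mitochondrial counts. Tumour cells were those with at least 1 UMI (unique molecular identifier, a counted RNA molecule) of the H2B–mCherry feature H2BMc, and they numbered 16576, or 356 to 3419 per library, with summed counts of 9636867 to 47704816 UMIs. Marker gates gave 427 endothelial cells, 702 macrophages and 373 T cells, and 40567 kept cells belonged to no class. In the tumour class Krt8 was detected in 79.9% of cells and Krt18, also an epithelial keratin, in 0.139%, whereas Pdgfra, a marker of fibroblasts, was detected in 52.0%. The host gates used their markers, so these are a description and no check. Pecam1 was in 89.7% of the endothelial gate and 0.688% of tumour cells, C1qb in 77.6% of the macrophage gate and 2.59% of tumour cells, and Cd3e in 71.8% of the T cell gate and 0.0845% of tumour cells. The targeted genes did not check the labels, since RNA counted from the 5′ end can remain after an edit in exon 1. The log2 difference of Kmt2c in Kmt2c KO tumour cells was -0.03 (edgeR, adjusted p = 0.884), and that of Kmt2d in Kmt2d KO tumour cells was 0.53 (adjusted p = 0.107). The WT libraries were smaller but deeper per cell, with medians of 13721 to 24198.5 UMIs per tumour cell against 8659 to 14771 in the knockouts. Kmt2d KO library 2 differed more from the other Kmt2d KO libraries in its tumour cells (chi-square per degree of freedom 59.1 and 76.6) than those from each other (11.4), where pairs of Kmt2c KO libraries had 21.8 to 38.3 and pairs of WT libraries 4.05 to 6.15. This value grows with the UMIs of the sums, which were fewest in WT, so it does not compare the spread between genotypes. Within cell classes, differences of Stat2 and Irf9 for Kmt2d KO are given with and without Kmt2d KO library 2. The share of barcodes lost to the mitochondrial limit was 11.6% to 33.8% in WT, 7.78% to 9.96% in Kmt2c KO and 13.3% to 17.6% in Kmt2d KO. Libraries shared 4365 barcode sequences, 1889 of them among kept cells.

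Promoter sequences were read for the 9 genes because Stat2, Irf9 and Ifnar2 carried the differences described here. RefSeq (GRCm38.p6) gave windows from 250 bases before to 50 after the annotated start for all 9. They were searched on both strands for GAAA, NN and GAAA joined, the core of the interferon-stimulated response element, and for TTCNNNGAA, the gamma-activated site bound by STAT dimers. The first motif was in 3.44% of the 32851 windows of all genes and the second in 8.3%. Stat2 held the first on the reverse strand, where the strand of the gene reads TTTCAGTTTC, from -222 to -213 relative to the start. Ifnar2 held TTCCTGGAA from -214 to -206, and Ifnar1 held TTCACGGAA from -5 to 4. The other 6 genes, Irf9 included, had no match in these windows. The 250 bases before the start are shown for the 3 genes, 5′ to 3′ on the strand of the gene, with the matches in capitals (Stat2 at chr10:128270248-128270497, Ifnar2 at chr16:91372533-91372782 and Irf9 at chr14:55603735-55603984, all on the plus strand).
Stat2: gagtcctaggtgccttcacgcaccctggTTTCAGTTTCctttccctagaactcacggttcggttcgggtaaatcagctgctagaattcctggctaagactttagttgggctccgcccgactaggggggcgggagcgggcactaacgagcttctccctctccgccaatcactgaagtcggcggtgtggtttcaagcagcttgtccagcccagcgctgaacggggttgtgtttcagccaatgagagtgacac
Ifnar2: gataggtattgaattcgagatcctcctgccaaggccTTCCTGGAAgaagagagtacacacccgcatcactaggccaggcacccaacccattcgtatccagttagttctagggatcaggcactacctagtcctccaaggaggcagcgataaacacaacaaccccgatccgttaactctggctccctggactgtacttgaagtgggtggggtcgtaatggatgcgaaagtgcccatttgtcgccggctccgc
Irf9: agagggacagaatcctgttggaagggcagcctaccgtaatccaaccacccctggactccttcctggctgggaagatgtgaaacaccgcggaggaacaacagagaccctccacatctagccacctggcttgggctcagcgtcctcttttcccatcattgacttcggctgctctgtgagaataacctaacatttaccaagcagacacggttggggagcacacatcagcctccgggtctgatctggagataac
The Irf9 sequence has no capitals. It is the first of 2 Irf9 windows, and the second had no match either. Ifnar2, Ifnar1 and Ifngr2 lie near each other on chromosome 16, with gene bounds starting at 91372783, 91485032 and 91547059. The windows of Ifnar1, Jak1 and Tyk2 were set on starts inside the gene bounds. For Ifnar1 the 250 upstream bases ended at 91485214, and the match is counted from there. A match describes the letters only and was not tested as a binding site.

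In tumour cells of Kmt2c KO tumours, Stat2, Irf9 and Ifnar2 were higher than in WT, and no kinase passed the test. Stat2 was 5.74 times as high, Irf9 3.31 times and Ifnar2, the long signalling chain of the type I receptor, 1.42 times. These 3 of the 9 genes passed at an adjusted p below 0.05 over 14015 genes tested, where 18.9% of all genes passed (9.48% higher and 9.38% lower). None of the 9 passed lower. Levels are given in CPM, the UMIs of a gene for every 1000000 UMIs of the cell class in that library.

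**Figure D1:**
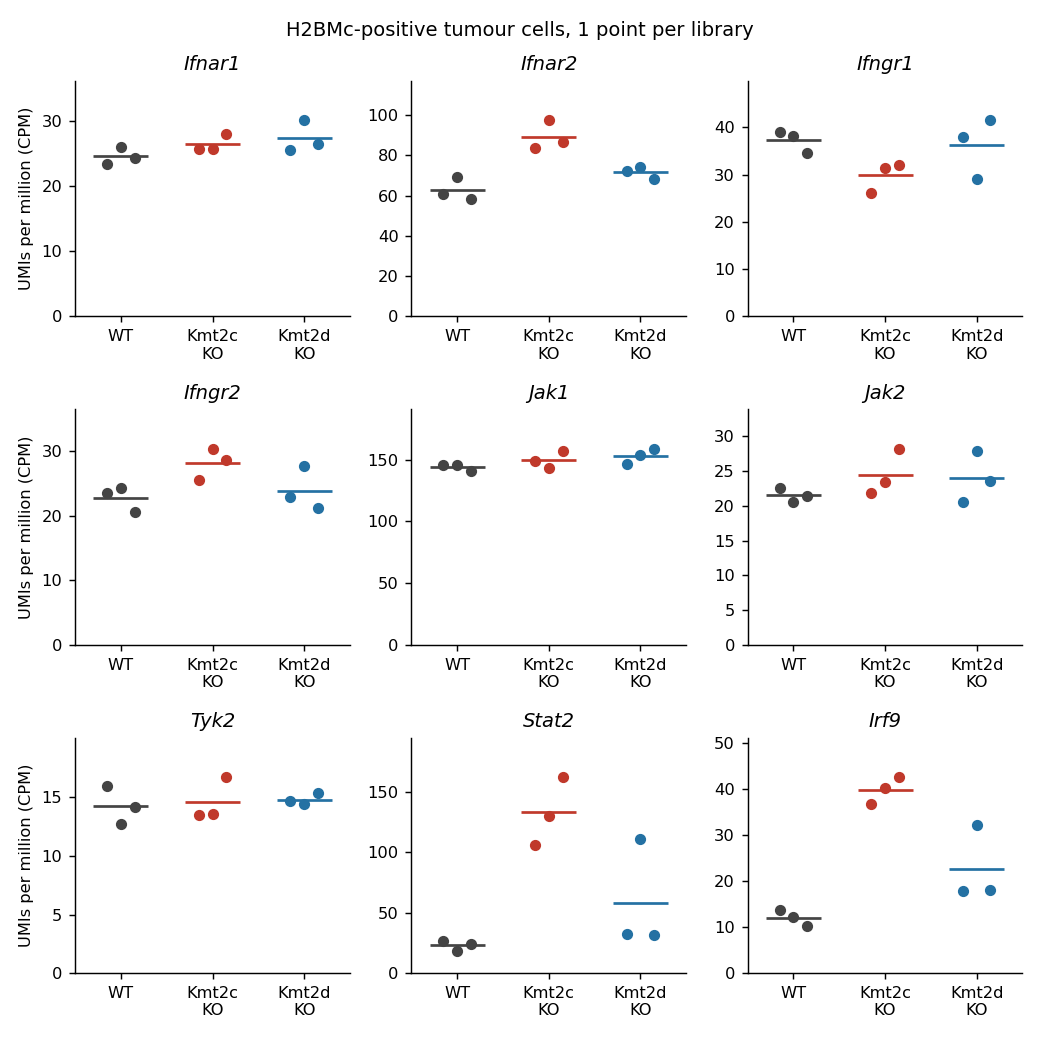
Levels of the 9 genes in H2BMc-positive tumour cells, in CPM (linear axes from 0), with a point per library and a bar at the mean of the 3 libraries of WT, Kmt2c KO and Kmt2d KO tumours. Stat2 and Irf9 stand higher in all Kmt2c KO libraries than in all WT libraries, and among the Kmt2d KO libraries the highest point is library 2, at 110.8 CPM for Stat2 against 32.7 and 31.7 in the others.

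Among the receptors, Ifnar2 was measured at 60.6, 69.4 and 58.2 CPM in WT and at 83.7, 97.5 and 86.8 CPM in Kmt2c KO tumours. The groups did not overlap, with means of 62.7 ± 5.91 and 89.3 ± 7.21 CPM (SD, n = 3 each). The log2 difference of Ifnar2 was 0.51 (SE 0.10, edgeR quasi-likelihood test, adjusted p = 0.00875), and it was not called when cells were thinned to 3000 UMIs each (0.40, adjusted p = 0.0790). Its partner chain Ifnar1, which binds Tyk2, was at 23.5, 26.02 and 24.4 CPM in WT and at 25.7, 25.8 and 28.0 CPM in Kmt2c KO. Those groups overlapped, and the fold of Ifnar1 was 1.07 (95% interval 0.934 to 1.23, adjusted p = 0.465). Thus the chains of a single receptor were not called alike, although the difference between the chains was not itself tested.

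The chains of the interferon gamma receptor lay on opposite sides of WT and neither passed. Ifngr1, the ligand-binding chain, was at 39.0, 38.2 and 34.7 CPM in WT and at 26.1, 31.5 and 32.1 CPM in Kmt2c KO. All 3 Kmt2c KO libraries were below all WT libraries, at a fold of 0.80 (95% interval 0.649 to 0.985, adjusted p = 0.122). Ifngr2, the chain that brings in Jak2, was at 23.5, 24.3 and 20.5 CPM in WT and at 25.6, 30.4 and 28.7 CPM in Kmt2c KO. Here the Kmt2c KO libraries were all above WT, at a fold of 1.23 (95% interval 1.02 to 1.49, adjusted p = 0.110). Both chains did pass when Kmt2d KO library 2 was left out of the shared fit (Ifngr1 at -0.32, adjusted p = 0.0208, and Ifngr2 at 0.30, adjusted p = 0.0408), with 29% of all genes then passing. They also passed when the WT and Kmt2c KO libraries were fitted alone, where 3648 genes were called in place of 2643. Over the 18 alternatives Ifngr1 was called in 3, with log2 differences from -0.49 to -0.22 throughout. Ifngr2 was called in 2 of the 18, with log2 differences from 0.24 to 0.46.

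No kinase differed beyond the spread between libraries. Jak1, which serves both receptors, was at 145.5, 146.0 and 141.0 CPM in WT and at 148.8, 143.3 and 157.1 CPM in Kmt2c KO. The fold of Jak1 was 1.04, with a 95% interval of 0.932 to 1.15 (edgeR, adjusted p = 0.644). This was the narrowest interval of the 9. Jak2 was at 22.6, 20.5 and 21.4 CPM in WT and at 21.9, 23.4 and 28.2 CPM in Kmt2c KO, a fold of 1.13 (0.942 to 1.37, adjusted p = 0.318). Tyk2 was at 15.9, 12.7 and 14.1 CPM in WT and at 13.4, 13.5 and 16.7 CPM in Kmt2c KO, a fold of 1.02 (0.863 to 1.21, adjusted p = 0.880). The groups overlapped for all 3 kinases, and the sign of Tyk2 turned in 3 of the alternative settings.

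The transcription factors showed the widest separation. Stat2 was at 26.7, 18.5 and 24.3 CPM in WT and at 106.5, 130.4 and 162.1 CPM in Kmt2c KO. The lowest Kmt2c KO library was thus far above the highest WT library, and the log2 difference was 2.52 (SE 0.44, 95% interval of the fold 2.94 to 11.2, edgeR, adjusted p = 0.00444). Irf9 was at 13.7, 12.1 and 10.3 CPM in WT and at 36.8, 40.2 and 42.6 CPM in Kmt2c KO. Again the groups did not overlap, and the log2 difference was 1.73 (SE 0.21, 95% interval of the fold 2.39 to 4.58, adjusted p = 0.000847). The median log2 difference was 0.10 over the 7 receptor and kinase genes and 2.12 over Stat2 and Irf9, beside -0.0045 over all genes tested. In total 5 of the 9 genes had groups that did not overlap (4 higher and 1 lower), where 37.5% of all genes with at least 10 UMIs had such groups.

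**Figure D2:**
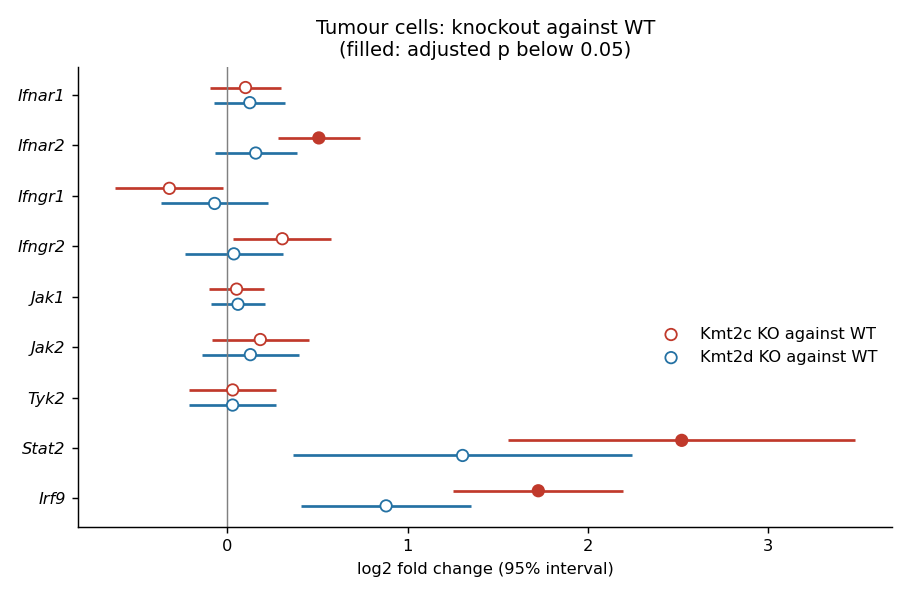
Log2 differences from WT in tumour cells for the 9 genes, with points for Kmt2c KO and Kmt2d KO, filled at an adjusted p below 0.05, and bars for the 95% interval from the edgeR fit. Stat2 at 2.52 and Irf9 at 1.73 in Kmt2c KO lie far from 0, Ifnar2 at 0.51 lies nearer, and the intervals of the 3 kinases include 0 in both comparisons.

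Markers of host cells and of tumour cells moved with genotype in the tumour sums. The 3 tumour markers summed to 621.6 to 676.1 CPM in WT, 383.7 to 491.6 CPM in Kmt2c KO and 416.8 to 583.1 CPM in Kmt2d KO. The summed level of the 10 endothelial markers was 18.8 to 21.7 CPM in WT, 32.7 to 36.4 CPM in Kmt2c KO and 20.9 to 28.4 CPM in Kmt2d KO. Over all tumour cells most of it came from Eng (16.7 CPM) and Cdh5 (7.86 CPM), with Pecam1 at 0.53 CPM. The sum therefore does not measure endothelial cells alone. For the 9 macrophage markers it was 5.7 to 7.8 CPM in WT and 9.5 to 12.2 CPM in Kmt2c KO, and among Kmt2d KO libraries 11.4 CPM in library 2 and 5.7 CPM in the others. Their part in the results was not tested. Stat2, Irf9 and Ifnar2 kept their calls in Kmt2c KO tumour cells with the mitochondrial limit at 25%, and the part of the losses was not tested further.

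In Kmt2d KO tumour cells none of the 9 genes passed against WT, where 2.26% of all genes passed. DESeq2 called Irf9 alone (adjusted p = 0.00243, with 4.79% of all genes called), and in edgeR Stat2 and Irf9 were at an unadjusted p below 0.05. This comparison shares the WT libraries with the first. Stat2 was at 32.7, 110.8 and 31.7 CPM in these tumours, all above the highest WT library, and library 2 alone lay in the range of Kmt2c KO. Its log2 difference was 1.31 (SE 0.43, adjusted p = 0.154), and without library 2 it was 0.47 (adjusted p = 0.121). Irf9 was at 17.8, 32.1 and 18.1 CPM, also above every WT library in all 3. Its log2 difference was 0.88 (SE 0.21, adjusted p = 0.0634), and without library 2 it was smaller at 0.55 but passed (adjusted p = 0.0120, with 5.79% of all genes passing). Over the 18 alternatives, these 2 settings included, Irf9 was called in 6 and Stat2 in 1.

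The receptors and kinases of Kmt2d KO tumour cells lay close to WT. Ifnar2 was at 72.1, 74.5 and 68.1 CPM, overlapping the highest WT library, with a fold of 1.11 (95% interval 0.952 to 1.30, edgeR). Ifnar1 was at 25.7, 30.2 and 26.6 CPM, with a fold of 1.09 (0.950 to 1.25). Ifngr1 was at 38.04, 29.1 and 41.5 CPM, where library 2 was the lowest, and Ifngr2 was at 22.9, 27.7 and 21.2 CPM, where library 2 was the highest. The same library thus lay on the Kmt2c KO side for both chains of the interferon gamma receptor. The folds were 0.952 (0.774 to 1.17) for Ifngr1 and 1.02 (0.848 to 1.24) for Ifngr2. Jak1 was at 146.9, 154.2 and 158.9 CPM, all above WT, with a fold of 1.04 (0.937 to 1.16). Jak2 was at 20.5, 27.9 and 23.5 CPM, with a fold of 1.09 (0.907 to 1.32). Tyk2 was at 14.6, 14.4 and 15.3 CPM, with a fold of 1.02 (0.863 to 1.21). In all, 3 of the 9 genes (Jak1, Stat2 and Irf9) had groups that did not overlap, all higher, beside 21.8% of all genes.

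Set directly against each other, Kmt2d KO and Kmt2c KO tumour cells differed at no gene of the 14015 in edgeR (0% called), although 2488 genes were at an unadjusted p below 0.05 and DESeq2 called 568 (4.05%), among them Irf9 (adjusted p = 0.00323) and Ifnar2 (adjusted p = 0.0461). The log2 difference of Kmt2d KO minus Kmt2c KO was -1.22 for Stat2 (SE 0.40, adjusted p = 0.165), -0.84 for Irf9 (SE 0.20, adjusted p = 0.0858) and -0.35 for Ifnar2 (SE 0.10, adjusted p = 0.127). These calls depended on the tool, on the filter and on Kmt2d KO library 2. With no filter on low counts edgeR called Stat2 (adjusted p = 0.0263) and Irf9 (adjusted p = 0.00537). Without library 2 19.8% of all genes passed, and with them Stat2 at -2.06 (adjusted p = 3.1e-06), Irf9 at -1.17 (adjusted p = 7.9e-06), Ifnar2 at -0.37 (adjusted p = 0.0288), Ifngr1 at 0.39 (adjusted p = 0.0143) and Ifngr2 at -0.38 (adjusted p = 0.0257). No kinase passed in either form.

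Across the 9 tumour-cell sums, the genes with levels most like Stat2 among 6661 genes with a mean of at least 20 CPM were Oasl2 (Pearson's r = 0.999), Isg15 (0.997), Parp14 (0.996), H2-T22 (0.996) and Xaf1 (0.996). Those most like Irf9 were Sdc3 (0.996), Znfx1 (0.993), Socs1 (0.992), Ano8 (0.991) and Rrbp1 (0.990). These are descriptions over sums that share libraries and genotypes. Stat2 and Irf9 had r = 0.976 with each other. Against Stat2 the other receptor chains had 0.845 for Ifnar2, 0.843 for Ifngr2, 0.592 for Ifnar1 and -0.788 for Ifngr1. The kinases had 0.721 for Jak2, 0.363 for Jak1 and 0.166 for Tyk2 against Stat2.

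The rest of the pathway was taken from lists chosen with earlier results of these data known. The counts of these lists, the inhibitors and output genes included, are therefore a description. In Kmt2c KO tumour cells 3 of 6 other JAK and STAT genes were higher than WT by the same test and none lower, beside 9.48% of all genes higher, namely Jak3 at 0.79, Stat3 at 0.63 and Stat6 at 0.35 on the log2 scale. Of the 6 other IRF genes tested 4 were higher, led by Irf7 at 3.39, which amplifies type I interferon production, and Irf1 at 1.78, an early target of interferon gamma, with Irf5 at 1.31 and Irf2 at 0.50. Of 8 other JAK-linked receptor genes tested, 3 were higher (Il2rg, the common gamma chain, at 1.94, Il13ra1 at 1.38 and Osmr at 1.20). The median log2 differences of these lists were 0.49, 1.19 and 0.23, beside -0.0045 over all genes.

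Inhibitors of the pathway went both ways, with 5 higher and 3 lower of 13, beside 9.48% higher and 9.38% lower of all genes. Usp18, which binds Ifnar2 and blocks its signalling, was higher by 3.03 on the log2 scale and Socs1, which binds and blocks JAKs, by 1.17, and Socs3 was at 0.60, Ptpn6 at 0.50 and Pias4 at 0.35. Socs2 at -0.86, Pias2 at -0.59 and Pias3 at -0.40 were lower. Of the interferon-induced output genes 10 of 11 tested were higher, with a median of 2.83. Isg15, which encodes a ubiquitin-like modifier, was at 101.9, 70.2 and 100.6 CPM in WT and at 609.4, 780.3 and 848.4 CPM in Kmt2c KO, and Rsad2, an antiviral enzyme, had the largest log2 difference of the list at 4.59. The groups of Isg15 did not overlap. Ifit2 at 0.93 was the exception (edgeR, adjusted p = 0.0593). In Kmt2d KO a single gene of these lists passed, Il2rg at 1.33 (adjusted p = 0.0178), and the output list had a median of 1.54, with Isg15 at 147.7, 535.7 and 137.0 CPM. Over the same 11 output genes the median was 0.37 without library 2, where Irf7, Il2rg, Usp18, Isg15 and Psmb8 passed among 5.79% of all genes.

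Interferon ligands were sparse, with 0 of 10 genes past the filter in tumour cells, endothelial cells and macrophages, and 1, Ifng, in T cells. There Ifng, the ligand of Ifngr1, was counted with 147 and 6 UMIs in Kmt2c KO libraries 2 and 3, with 1, 7 and 1 UMIs in Kmt2d KO, and with 3 UMIs in a single WT library. From 11 to 185 T cells per library, these counts give 484.2 and 74.1 CPM in Kmt2c KO, 11.1, 399.4 and 28.1 CPM in Kmt2d KO and 117.7 CPM in WT library 3. The log2 difference of Ifng was 2.66 for Kmt2c KO (SE 1.33, edgeR, adjusted p = 0.993) and 0.89 for Kmt2d KO (SE 1.63, adjusted p = 0.969), and no order of genotypes can be read from them.

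Endothelial cells of the same tumours, which carry no knockout, gave 2 calls among 8 genes tested in Kmt2c KO tumours, where 5.60% of 5517 genes passed (3.77% higher and 1.83% lower). Both were transcription factors. Stat2 was at 36.9, 27.8 and 63.1 CPM in WT and at 161.0, 177.4 and 174.4 CPM in Kmt2c KO. The groups did not overlap, and the log2 difference was 1.99 (SE 0.38, edgeR, adjusted p = 0.00895), a fold of 3.96 (95% interval 2.27 to 6.92). Irf9 was at 23.7, 20.2 and 31.6 CPM in WT and at 61.1, 61.7 and 70.8 CPM in Kmt2c KO. Its log2 difference was 1.34 (SE 0.32, adjusted p = 0.0255), from 8 to 18 UMIs per library, and it was not called by DESeq2 (adjusted p = 0.123) or without WT library 1 or 2 or any of the Kmt2c KO libraries (adjusted p 0.0502 to 0.0905). Stat2 kept its call in every alternative run for these cells.

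**Figure D3:**
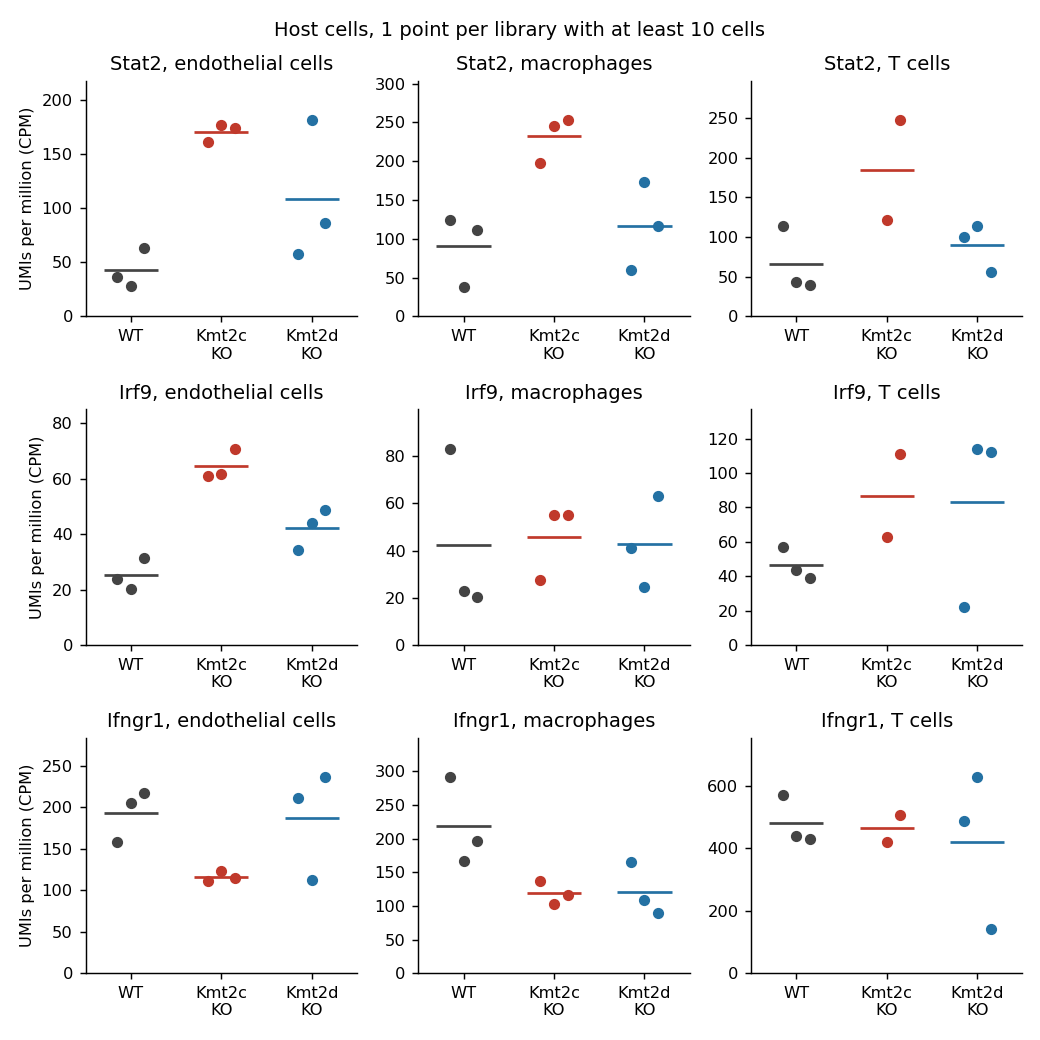
Levels of Stat2, Irf9 and Ifngr1 in marker-gated endothelial cells, macrophages and T cells, in CPM (linear axes from 0), with a point per library of at least 10 cells and a bar at the group mean. Endothelial Stat2 in Kmt2c KO (161.0 to 177.4 CPM) lies above all WT libraries (27.8 to 63.1 CPM), and Ifngr1 lies lower in Kmt2c KO than in WT in endothelial cells and macrophages. The T cell groups overlap for Ifngr1, while for Stat2 and Irf9 the Kmt2c KO points lie above those of WT, which rest on 1 or 2 UMIs each.

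No receptor or kinase passed in endothelial cells. Ifngr1 was at 158.2, 204.9 and 216.7 CPM in WT and at 111.0, 123.4 and 114.4 CPM in Kmt2c KO, all 3 below WT. Its log2 difference was -0.71 (SE 0.25, edgeR, adjusted p = 0.118), and among the alternatives it passed only without Kmt2d KO library 2 (adjusted p = 0.0400). The other log2 differences were 0.26 for Ifnar2, 0.21 for Ifnar1, 0.21 for Ifngr2, 0.40 for Jak2 and 0.15 for Jak1, with overlapping groups, and Tyk2 was below the filter with 4 to 18 UMIs per library. Of the 9 genes 3 had groups that did not overlap, beside 21.9% of all genes. In Kmt2d KO tumours no gene passed at all (0% of 5517, 558 at an unadjusted p below 0.05, and 4 by DESeq2). Endothelial Stat2 was at 58.0, 181.5 and 86.9 CPM there, with library 2 the highest, at a log2 difference of 1.24 (edgeR, adjusted p = 0.298), or 0.72 without that library (adjusted p = 0.516). Irf9 was at 34.1, 44.1 and 48.9 CPM, at 0.72 (adjusted p = 0.463), or 0.69 without that library (adjusted p = 0.619). Jak1 was at 238.8, 260.0 and 219.9 CPM, beside 193.5 to 204.9 CPM in WT, at 0.26 (edgeR, adjusted p = 0.742). Irf9 and Jak1 were the 2 of the 9 genes with groups that did not overlap, both higher. No share over all genes stands beside this for Kmt2d KO endothelial cells.

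Other genes of the lists rose in these endothelial cells as well, beside 3.77% of all genes, with 3 of 5 IRF genes tested (Irf1 at 1.85, Irf7 at 2.45 and Irf8 at 2.26), 1 of 8 inhibitors (Socs1 at 3.99) and 5 of 12 output genes. None of 4 other JAK and STAT genes and 6 other receptors was called. Counts of free RNA from tumour cells can enter host cells. The gate left out cells with an H2BMc or Krt8 UMI. The level of Stat2 in the endothelial gate was 107.6% to 274.1% of that in the tumour cells of the same library, and that of Irf9 was 137.6% to 307.1%. Pdgfra, which tumour cells hold, was at 0% of its tumour-cell level in all WT libraries. It was at 0%, 12.4% and 7.37% in Kmt2c KO and at 10.6%, 0% and 19.1% in Kmt2d KO. Mural markers in this gate were at 482.5, 2.5 and 56.8 CPM in WT, at 149.9, 597.8 and 779.3 CPM in Kmt2c KO and at 64.8, 637.7 and 426.3 CPM in Kmt2d KO. Fibroblast markers were at 84.4, 2.5 and 0 CPM in WT, at 77.7, 277.7 and 359.7 CPM in Kmt2c KO and at 71.6, 387.5 and 95.04 CPM in Kmt2d KO. The groups overlapped for both. The part of these cells, and that of free RNA, in the results was not tested.

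Macrophages gave a single call of the 9 genes in Kmt2c KO tumours, Stat2, where 9.47% of 4234 genes passed (6.33% higher and 3.14% lower). Stat2 was at 124.8, 38.1 and 110.9 CPM in WT and at 198.3, 245.1 and 252.8 CPM in Kmt2c KO. The groups did not overlap, and the log2 difference was 1.37 (SE 0.35, edgeR, adjusted p = 0.0179), which no longer passed when WT library 2 or 3 or Kmt2c KO library 2 or 3 was left out (adjusted p 0.0507 to 0.0753) or when Krt8-positive cells were kept (adjusted p = 0.0575). Irf9 was at 83.2, 22.8 and 20.5 CPM in WT and at 27.4, 55.0 and 55.2 CPM in Kmt2c KO. WT library 1 held the highest level of Irf9, from 12 UMIs, and the log2 difference was 0.38 (SE 0.49, adjusted p = 0.716), or 1.21 without that library.

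Ifngr1 came closest to a call among the receptors of macrophages, at 291.2, 167.5 and 197.1 CPM in WT and at 136.8, 103.1 and 116.9 CPM in Kmt2c KO. All Kmt2c KO libraries were below all WT libraries, at a log2 difference of -0.85 (SE 0.26, edgeR, adjusted p = 0.0504). It passed with Krt8-positive cells kept (adjusted p = 0.0146) and without WT library 2, Kmt2d KO library 1 or Kmt2d KO library 2 (adjusted p 0.0343 to 0.0474), and lay farther from a call by DESeq2 (adjusted p = 0.164). Jak2 at 83.2, 99.0 and 90.3 CPM in WT and 47.9, 52.7 and 82.9 CPM in Kmt2c KO, and Tyk2 at 69.3, 60.9 and 57.5 CPM and 41.0, 29.8 and 57.4 CPM, also did not overlap. Their log2 differences were -0.45 (adjusted p = 0.463) and -0.47 (adjusted p = 0.501), and for neither does the test separate the genotypes. Thus 4 of the 9 had groups that did not overlap, beside 22.6% of all genes. The others were Ifnar2 at 0.10, Ifnar1 at -0.12, Ifngr2 at -0.17 and Jak1 at -0.10.

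In Kmt2d KO macrophages 1.04% of genes passed against WT and 0.496% against Kmt2c KO, and none of the 9 in either. Ifngr1 was at 164.9, 108.6 and 90.0 CPM, all below WT, at -0.74 (edgeR, adjusted p = 0.340), and Stat2 was at 59.5, 172.8 and 117.0 CPM, at 0.36 (adjusted p = 0.861), or -0.20 without library 2 (adjusted p = 0.958). Irf9 was at 41.2, 24.7 and 63.0 CPM, at 0.079 (adjusted p = 0.986), or 0.34 without library 2 (adjusted p = 0.949). Of the lists in Kmt2c KO macrophages, beside 6.33% of all genes higher, 2 of 5 IRF genes (Irf1 at 1.68 and Irf7 at 1.99), 2 of 8 inhibitors (Socs1 at 2.42 and Socs3 at 1.70) and 10 of 11 output genes were higher. Endothelial markers in this gate summed to 13.9 to 106.8 CPM in WT and to 88.9 to 174.2 CPM in Kmt2c KO, and Pdgfra, which tumour cells hold, was at 0% of its tumour-cell level in WT, at 43.1% to 52.6% in Kmt2c KO and at 14.3% to 18.1% in Kmt2d KO. The 5 fibroblast markers, Pdgfra among them, summed to 0 to 7.6 CPM in WT, 34.0 to 91.6 CPM in Kmt2c KO and 34.6 to 126.0 CPM in Kmt2d KO. Their part in the results was not tested.

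T cells were few, and Kmt2c KO library 1 with 7 T cells was left out. Of the 9 genes only Ifngr1 and Jak1 passed the filter on low counts, and neither was called in any comparison (of 652 genes, 0.46% passed for Kmt2c KO, 0% for Kmt2d KO and 0.767% for Kmt2d KO minus Kmt2c KO). For Kmt2d KO against WT 36 genes were at an unadjusted p below 0.05 and DESeq2 called none. Ifngr1 was at 570.2, 438.8 and 431.4 CPM in WT, at 421.6 and 506.6 CPM in Kmt2c KO and at 489.2, 627.7 and 140.6 CPM in Kmt2d KO. The groups overlapped widely. Stat2 rested on 2, 1 and 1 UMIs in WT, on 37 and 20 in Kmt2c KO and on 9, 2 and 2 in Kmt2d KO, too few for the test. For Stat2, Irf9 and Ifnar2 the Kmt2c KO libraries lay above all WT libraries, which held 1 or 2 UMIs of each gene. No share over all genes stands beside this for T cells.

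Whether an effect of Kmt2c KO differed between tumour cells and host cells was tested with the interaction of cell class and genotype within libraries. These edgeR fits took the spread from all genes together (degrees of freedom 78510 for endothelial cells and 77292 for macrophages). Their SE and p-values therefore do not measure the spread of a single gene between tumours. Against endothelial cells none of the 9 genes passed (3.42% of 13085 genes did), with Stat2 at a difference of effects of 0.61 (edgeR, adjusted p = 0.381) and Irf9 at 0.49 (adjusted p = 0.725). Without WT library 3 these were 0.22 and 0.16, and with limma on the differences per library 0.26 and 0.087. Against macrophages the effect on Stat2 was larger in tumour cells by 1.16 on the log2 scale (SE 0.31, adjusted p = 0.00662), where 4.87% of 12882 genes passed. It no longer passed without WT library 1 (0.95, adjusted p = 0.173), WT library 3 (0.98, adjusted p = 0.224) or Kmt2c KO library 3 (0.97, adjusted p = 0.112), nor with limma on the differences per library (0.71, adjusted p = 0.456). For Irf9 the difference was 1.37 (SE 0.49, adjusted p = 0.0837), or 0.53 without WT library 1 (adjusted p = 0.848). No receptor or kinase passed against either host class. For Kmt2d KO none of the 9 passed against endothelial cells (0.887% of all genes) or macrophages (1.78%), nor against T cells for either knockout (0.111% for Kmt2c KO and 0.0239% for Kmt2d KO).

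**Figure D4:**
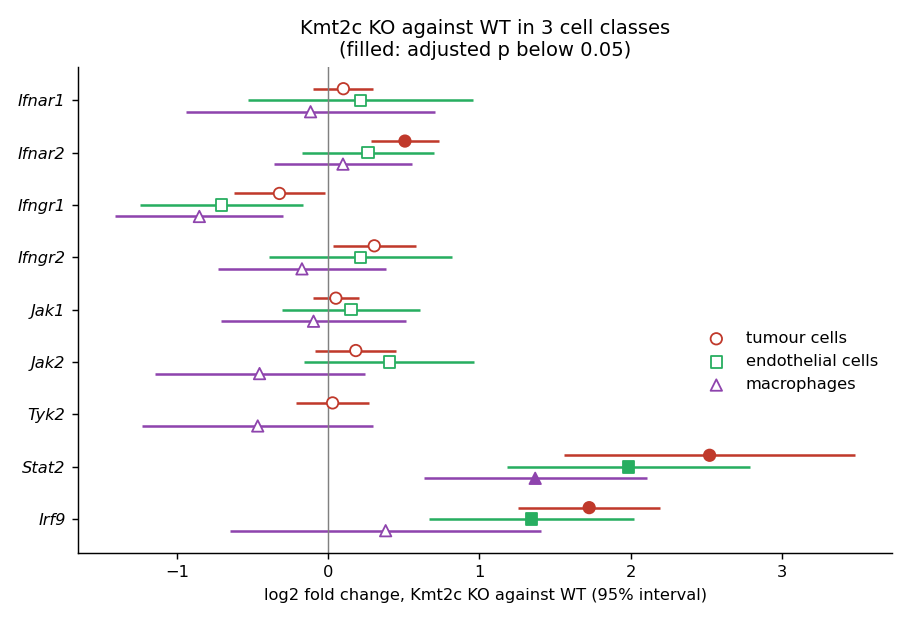
Log2 differences of Kmt2c KO from WT in tumour cells (circles), endothelial cells (squares) and macrophages (triangles) for each gene, with bars for the 95% interval from the edgeR fits and filled symbols at an adjusted p below 0.05. Stat2 lies above 0 in all 3 cell types (2.52, 1.99 and 1.37), and Ifngr1 lies below 0 in all 3 (-0.32, -0.71 and -0.85), where it was called in none.

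The 9 genes were also compared between cell types within libraries, each gene with itself, over 54 pairs of classes. In 38 of them the levels differed by the two-sided exact paired permutation test on log2(CPM + 10) at a Benjamini-Hochberg adjusted p below 0.05. These include the pairs of Ifngr2 with T cells, which rest mostly on zeros. The test was run on the 9 genes only, with no share over all genes beside it, so these counts do not set the 9 genes apart. Tumour cells held the lowest mean of 8 of the 9 genes. They were below endothelial cells for all 9, and for every gene but Jak1 in 9 of 9 libraries (exact permutation test, adjusted p = 0.0124, from the smallest p of 0.00391 that 9 libraries allow). Against macrophages 8 genes were lower in tumour cells, Irf9 just inside the limit (adjusted p = 0.04996, and 0.0863 where classes needed at least 20 cells per library), and Jak1 did not differ beyond its spread (149.1 CPM against 160.1 CPM, exact permutation test, adjusted p = 0.637).

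**Figure D5:**
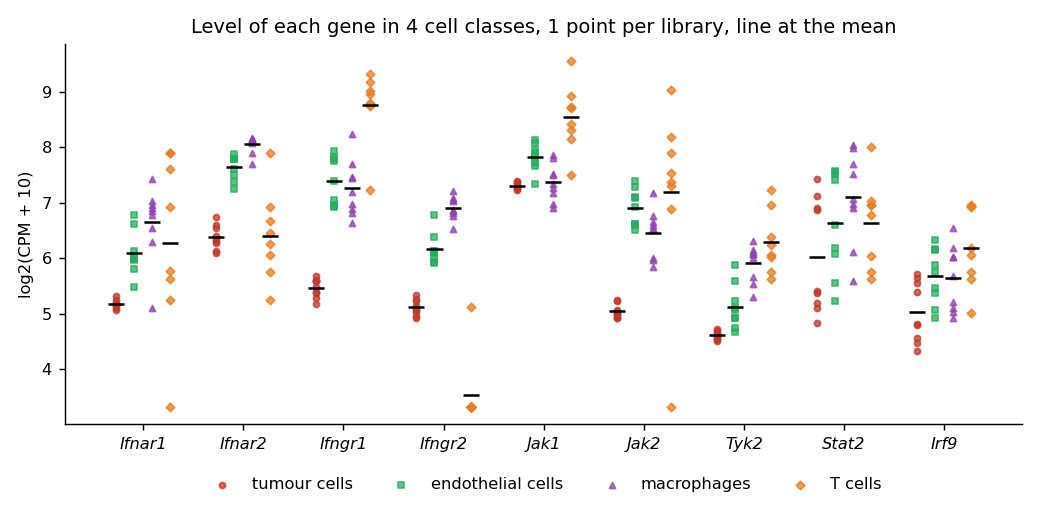
Levels of the 9 genes by cell class over all genotypes, as log2(CPM + 10), with a point per library of at least 10 cells of the class and a line at the mean. Ifngr1 is lowest in tumour cells (mean 34.5 CPM) and highest in T cells (453.3 CPM), and the mean of Ifngr2 in T cells comes from libraries of which 7 of 8 had no UMI.

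The interferon gamma receptor chains differed between classes. Ifngr1 had means of 34.5 ± 5.13 CPM in tumour cells (SD, n = 9), 165.5 CPM in endothelial cells, 152.9 CPM in macrophages and 453.3 CPM in T cells (n = 8). Endothelial cells and macrophages did not differ beyond their spread in it (exact permutation test, adjusted p = 0.610), whereas T cells were above each of the other classes (adjusted p 0.0145 to 0.0241). Ifngr2 had means of 24.97 CPM in tumour cells, 63.1 CPM in endothelial cells, 111.7 CPM in macrophages and 3.09 CPM in T cells, and the 3 pairs without T cells were called. It was counted in T cells with 2 UMIs of 593400, both in Kmt2c KO library 3. In Kmt2c KO library 2 it had 0 of 303604 UMIs, which allows up to 9.88 CPM, beside 30.4 CPM in the tumour cells of that library. The WT and Kmt2d KO libraries also had 0 UMIs, but there a count of 0 allows 33.4 to 171.2 CPM, above the tumour-cell level of each and in WT (117.7 CPM or more) above the endothelial levels of 50.5 to 73.4 CPM. The pairs of T cells with the other classes also passed, but rest mostly on zeros of this kind, and no order is read from them.

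The type I receptor chains were ordered differently. Ifnar2 had means of 258.1 CPM in macrophages, 191.8 CPM in endothelial cells, 88.2 CPM in T cells and 74.5 CPM in tumour cells, and T cells and tumour cells did not differ beyond their spread (exact permutation test, adjusted p = 0.868). Ifnar1 had 108.2 CPM in T cells, 99.1 CPM in macrophages, 60.8 CPM in endothelial cells and 26.2 CPM in tumour cells. Tumour cells differed from endothelial cells and macrophages in it but not from T cells (exact permutation test, adjusted p = 0.113), and no pair of host classes differed beyond its spread.

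Among the kinases, Jak1 had means of 391.5 CPM in T cells, 218.9 CPM in endothelial cells, 160.1 CPM in macrophages and 149.1 CPM in tumour cells, and T cells were above each other class. Jak2 had 201.4, 113.0, 81.4 and 23.3 CPM in the same order, and in it only tumour cells differed from the rest. Tyk2 had 73.8 CPM in T cells, 51.8 CPM in macrophages, 26.2 CPM in endothelial cells and 14.5 CPM in tumour cells, and the first pair did not differ beyond its spread (exact permutation test, adjusted p = 0.197). Stat2 had 146.6 CPM in macrophages, 107.4 CPM in endothelial cells, 104.6 CPM in T cells and 71.5 CPM in tumour cells, where the SD over the 9 libraries was 55.4 CPM. These means mix genotypes, and T cells lacked a Kmt2c KO library. Within WT, Stat2 was at 65.7 CPM in T cells and 42.6 CPM in endothelial cells, and within Kmt2c KO at 184.5 and 170.9 CPM, the reverse of the pooled order, while within Kmt2d KO it was at 90.1 and 108.8 CPM. Irf9 had 70.3 CPM in T cells, 44.0 CPM in endothelial cells, 43.7 CPM in macrophages and 24.9 CPM in tumour cells, and the host classes did not differ from each other in it beyond their spread (adjusted p 0.0541 to 0.879). T cell values rest on as few as 11 cells per library, and with at least 20 cells per library only 4 libraries kept T cells, so that the smallest possible p was 0.125 for their pairs. Then 21 pairs were called, none with T cells, and 7 in place of 8 between tumour cells and macrophages. A level in CPM does not tell RNA of a gene per cell from the total RNA of the cell.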

How the data were processed

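Cells of 9 tumours, dissociated and cleared of debris on Percoll, were sequenced with the 10x Chromium 5′ HT v2 kit. The authors ran Cell Ranger 7.0.1 (genome mm10 in the submitters' processing notes) and deposited 1 matrix of UMI counts per gene and barcode; whether aggregation equalised depth is not stated in the sources used. The group of each library was read from the genotype letter in the deposited aggregation table, where X was taken as WT, C as Kmt2c KO and D as Kmt2d KO, following names the study gave its comparisons. Library numbers 1 to 3 only name libraries.

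Cells with more than 500 and fewer than 7500 genes and under 15% mitochondrial counts were kept. Tumour cells had at least 1 H2BMc UMI and passed no host gate. Host cells had no H2BMc or Krt8 UMI, at least 3 of 10 endothelial, 3 of 9 macrophage or 2 of 8 T cell markers and fewer than 2 markers of each other gate. No doublet caller was run, and of 16707 cells with an H2BMc UMI 131 that passed a gate's marker number were left out. Counts were summed per library and class where it had at least 10 cells, and tested in edgeR 4.0.16 (R 4.3.3) by quasi-likelihood after filterByExpr and TMM, with all libraries in 1 fit and Benjamini-Hochberg adjustment over all genes tested. The SE is the log2 difference over the square root of F. Interactions had library as a block, and their fits took the spread from all genes together. DESeq2 1.42.0, limma 3.58.1, other filters, gates, cell definitions and left-out libraries served as alternatives. The fits were also run on simulated counts with the same spread for every gene, which does not show how they behave with the spread of single genes seen here. Classes were compared by exact sign-flip permutation of paired log2(CPM + 10).

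All 9 members were named, and list genes where called or where a result turned on them. The members and lists were chosen with earlier results of these data known.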

Additional observations from a re-analysis of the deposited data

Results flagged for a closer look

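The effect of Kmt2c KO on Stat2 differed between tumour cells and macrophages of the same libraries by 1.16 on the log2 scale (edgeR interaction test, SE 0.31, adjusted p = 0.00662, fold of folds 2.23, 95% interval 1.47 to 3.40). Stat2 was higher than WT by 2.52 on the log2 scale in tumour cells (SE 0.44) and by 1.37 in macrophages (SE 0.35). The SE, interval and p-value of the difference come from a spread taken from all genes together. They do not measure the spread of Stat2 itself between tumours. WT macrophages held 5 to 27 Stat2 UMIs per library and WT tumour cells 234 to 264. The test of the difference flagged it, but it no longer passed without WT library 1 (adjusted p = 0.173), WT library 3 (adjusted p = 0.224) or Kmt2c KO library 3 (adjusted p = 0.112), nor with limma on differences per library (0.71, adjusted p = 0.456). Dixon's test for single outlying values was not run, since groups held 3 libraries.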

How the results depend on the processing

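In Kmt2c KO tumour cells Stat2 (2.38 to 2.67) and Irf9 (1.38 to 1.81) passed under all 18 alternatives, and Ifnar2 (0.40 to 0.61) under all but thinning to 3000 UMIs per cell (0.40, adjusted p = 0.0790). The genes called of the 9 were 3 (2643 over all genes), but 5 with the 2 groups alone (3648 over all genes), where Ifngr1 and Ifngr2 were added. With single libraries left out the calls of the 9 were 3 to 5 (1280 to 4105 over all genes). For Kmt2d KO minus WT they were 0 (317 over all genes), but 1 by DESeq2 (671), 2 with no filter and 1 with at least 2 H2BMc UMIs. Single libraries left out gave 0 to 1 (102 to 818 over all genes), and no other setting called more than 671 genes. For Kmt2d KO minus Kmt2c KO they were 0 (0 over all genes), but 2 by DESeq2 (568) and 2 with no filter (609). Single libraries left out gave 0 to 5 (0 to 2797 over all genes). In endothelial cells they were 2 for Kmt2c KO (309 over all genes), but 1 by DESeq2 (223), and 1 to 3 with single libraries left out (75 to 632). For Kmt2d KO they were 0 (0 over all genes), but 1 with no filter (163). For Kmt2d KO minus Kmt2c KO they were 0 to 2 (0 to 287 over all genes). In macrophages they were 1 for Kmt2c KO (401 over all genes), and 0 to 2 with single libraries left out (249 to 485). For Kmt2d KO they were 0 (44 over all genes), but 1 with Krt8-positive cells kept (273). For Kmt2d KO minus Kmt2c KO they were 0 (21 over all genes), but 1 with no filter (167), and 0 to 1 with single libraries left out (2 to 191). The macrophage interaction had 1 (0 to 1), but 0 by limma on differences. Class pairs called were 21 with at least 20 cells. Leaving out single libraries in the interactions, and limma, were chosen after seeing the data.

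Among values given in the report, signs turned for genes that were not called. With at least 2 H2BMc UMIs, tumour-cell values were -0.10 for Tyk2 in Kmt2c KO and 0.019 for Ifngr1 and -0.0078 for Ifngr2 in Kmt2d KO. With single libraries left out, tumour-cell Tyk2 ran from -0.045 to 0.10 in Kmt2c KO and from -0.044 to 0.10 in Kmt2d KO, Ifngr1 from -0.18 to 0.070 and Ifngr2 from -0.078 to 0.12 in Kmt2d KO, endothelial Ifngr1 from -0.21 to 0.18 in Kmt2d KO, macrophage Irf9 from -0.077 to 1.21 in Kmt2c KO and from -0.38 to 0.93 in Kmt2d KO, and macrophage Stat2 from -0.20 to 0.73 in Kmt2d KO. Endothelial Ifngr1 in Kmt2d KO was 0.011 with 1 more marker, and macrophage Irf9 in Kmt2d KO -0.12 with Krt8-positive cells kept. In Kmt2c KO endothelial cells, leaving out single libraries gave -0.14 to 0.53 for Ifnar1, -0.082 to 0.39 for Ifngr2 and -0.018 to 0.35 for Jak1, and in macrophages -0.0089 to 0.16 for Ifnar2 and -0.27 to 0.079 for Jak1. With 1 more marker endothelial Ifngr2 was -0.078, macrophage Jak1 0.054 and macrophage Jak2 0.11, and with Krt8-positive cells kept endothelial Jak1 was -0.043 and macrophage Ifnar2 -0.19. The cause was not tested.

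Over all genes, calls in tumour cells were 2643 for Kmt2c KO (1062 thinned to 4105 without Kmt2d KO library 2), 317 for Kmt2d KO (57 thinned to 818 without library 2) and 0 between the knockouts (up to 2797 without that library). They were 309 in endothelial cells (75 without Kmt2c KO library 3 to 657 with no filter) and 401 in macrophages (249 without WT library 3 to 766 with no filter) for Kmt2c KO, and 44 in Kmt2d KO macrophages (4 with 1 more marker to 273 with Krt8-positive cells kept). limma on differences called 122 genes against 627 for the macrophage interaction and 21 against 447 for the endothelial. No paired analysis was possible because genotypes were compared between libraries that carry no replicate number of the labels. Only cell classes were paired, within libraries. T cells with at least 20 cells per library left only 4 libraries, and comparisons with WT could not be fitted. WT libraries had the fewest tumour cells, and host values rest on few UMIs per gene (8 to 18 per library for endothelial Irf9), which limits their precision.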
